A study of Macaca mulatta with 24 samples.

Results

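SLC8A1, the gene of the plasma membrane sodium-calcium exchanger also called NCX1, was followed across 4 areas of rhesus monkey neocortex. The gene was chosen because earlier results of these data showed a difference between areas, so its levels are given as a description with no test between areas. It is 1 of 14132 genes named on the array. It was selected on its measured intensities, and its members were all probe sets of the deposited value table whose annotation names SLC8A1 and no other gene, which were 3 of 52865 probe sets. They are MmugDNA.19708.1.S1_at (the _at probe set), MmugDNA.19708.1.S1_s_at (the _s_at probe set) and MmuSTS.2417.1.S1_at (the STS probe set). The first and second names share a design target, and in the array maker's naming the suffix _s_at marks probes common to more than 1 transcript.

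The exchanger sits in the plasma membrane and carries calcium out of the cell by letting sodium in, so it depends on the sodium gradient that the sodium pump maintains. In neurons it works beside the calcium pumps of the plasma membrane, which have a higher affinity and a lower capacity. SLC8A1 has close relatives, SLC8A2 and SLC8A3, and its transcripts are alternatively spliced in the large intracellular loop of the protein. RefSeq lists 17 transcripts and 17 proteins for the rhesus gene, and the files do not say which of them each probe set reads.

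Total RNA was taken from prefrontal area 46 (A46, both banks of the principal sulcus), from the ventral (PMv) and dorsal (PMd) premotor areas around the arcuate sulcus, and from the forelimb part of the primary motor area (M1), and was hybridised to 24 one-colour Affymetrix arrays. Each area was taken from the left and right hemispheres of 3 animals, giving 6 arrays per area. All were Macaca mulatta aged 2.6 to 2.7 years, group-caged and not treated experimentally, and were perfused with heparinised saline under a pentobarbital overdose. Animals 1 and 2 were male and animal 3 was female, so whatever sets animal 3 apart cannot be told apart from sex. Values are RMA intensities in linear units (robust multi-array average, a summary of the probes of a set after the arrays are brought to a common distribution), and differences are on the log2 scale. The number of arrays limits the precision. Because each sample is a piece of tissue, fewer cells of a type and less RNA per cell cannot be told apart in any value below.

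The _at probe set was lowest in A46 and highest in M1, with both premotor areas between them. In animal 1 the left and right intensities were 162.2 and 167.7 in A46, 417.6 and 572.2 in PMv, 868.3 and 638.3 in PMd, and 895 and 769.7 in M1. In animal 2 they were 181.4 and 89.92 in A46, 389.3 and 474.8 in PMv, 490.3 and 485.7 in PMd, and 652.1 and 618.1 in M1. In animal 3 they were 171 and 155.7 in A46, 213.6 and 210.4 in PMv, 235 and 213.2 in PMd, and 281.2 and 319.9 in M1. Every one of the 18 motor and premotor arrays lay above all 6 A46 arrays, and within each of the 6 hemispheres the order was A46, PMv, PMd, M1. Among the 26383 probe sets above the intensity filter, 0.337% had all 18 motor arrays above all 6 A46 arrays. For single areas the share was 4.78% for M1, 1.48% for PMd and 0.762% for PMv. The choice of the gene used this same contrast, so these shares stand beside its pattern only as background.

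**Figure D1:**
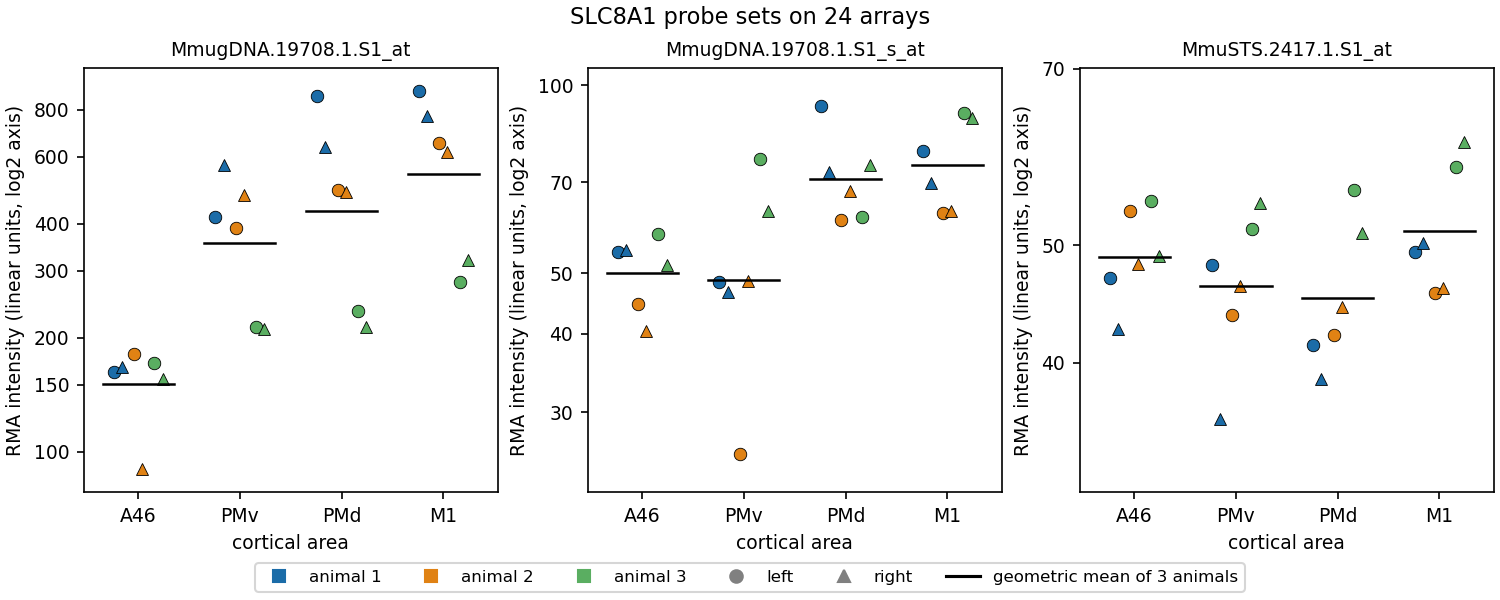
Intensity (linear units on a log2 axis, with its own range in each panel) of the 3 SLC8A1 probe sets on 24 arrays, by cortical area. Colours mark animals, circles the left and triangles the right hemisphere, and black lines the geometric mean of 3 animals. In the _at panel the A46 arrays lie between 89.92 and 181.4, and the arrays of animal 3 lie between 210.4 and 319.9 in the other areas, below those of animals 1 and 2.

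With the hemispheres of each animal averaged, the log2 level of the _at probe set was 7.24 ± 0.21 in A46 (SD, n = 3 animals), 8.47 ± 0.65 in PMv, 8.76 ± 0.88 in PMd and 9.08 ± 0.76 in M1. M1 exceeded A46 by 1.84 ± 0.83 on the log2 scale (SD, n = 3), a 3.58-fold difference in intensity. PMd exceeded A46 by 1.52 ± 0.93 and PMv exceeded it by 1.23 ± 0.75. On average the 3 motor areas lay closer to each other than to A46, but not in animal 3, where M1 minus PMv was 0.50 and PMv minus A46 was 0.38. M1 exceeded PMd by 0.32 ± 0.14 and PMv by 0.61 ± 0.14, and PMd exceeded PMv by 0.29 ± 0.28. The step from PMv to PMd was about as large as its spread between animals, at 0.61, 0.18 and 0.08 in animals 1, 2 and 3. The step from PMd to M1 was 0.16, 0.38 and 0.42, and both steps were positive in 6 of 6 hemispheres. Those 6 hemispheres come from 3 animals and are not independent.

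The size of the difference varied between the animals. M1 exceeded A46 by 2.33 in animal 1, by 2.31 in animal 2 and by 0.88 in animal 3 (log2), which are 5.03-, 4.97- and 1.84-fold. For PMd the differences from A46 were 2.17, 1.93 and 0.46, and for PMv they were 1.57, 1.75 and 0.38. The hemispheres of animal 2 lay far apart, with M1 minus A46 at 1.85 on the left and 2.78 on the right, and PMv minus A46 at 1.10 and 2.40. Even so, the hemispheres of animal 3 lay below those of both other animals. M1 minus A46 was 0.72 to 1.04 in the 2 hemispheres of animal 3 and 1.85 to 2.78 in the 4 hemispheres of animals 1 and 2. PMd minus A46 was 0.45 to 0.46 against 1.43 to 2.43, and PMv minus A46 was 0.32 to 0.43 against 1.10 to 2.40. The hemispheres of an animal are not independent, so these ranges set 1 animal against 2. The share of all probe sets with such a separation was not computed.

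Animal 3 stood apart in the motor areas and not in A46. Its log2 level in A46 was 0.17 above the mean of animals 1 and 2. In M1 it was lower by a difference of -1.28, in PMd by -1.43 and in PMv by -1.11, so animals 1 and 2 were 2.42-, 2.69- and 2.16-fold higher there. Without animal 3, M1 minus A46 was 2.32 (n = 2), and without animal 1 or animal 2 it was 1.60. The right A46 array of animal 2, at 89.92, lay below the other A46 arrays, which ran from 155.7 to 181.4. Without it M1 minus A46 was 1.67 ± 0.74.

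**Figure D2:**
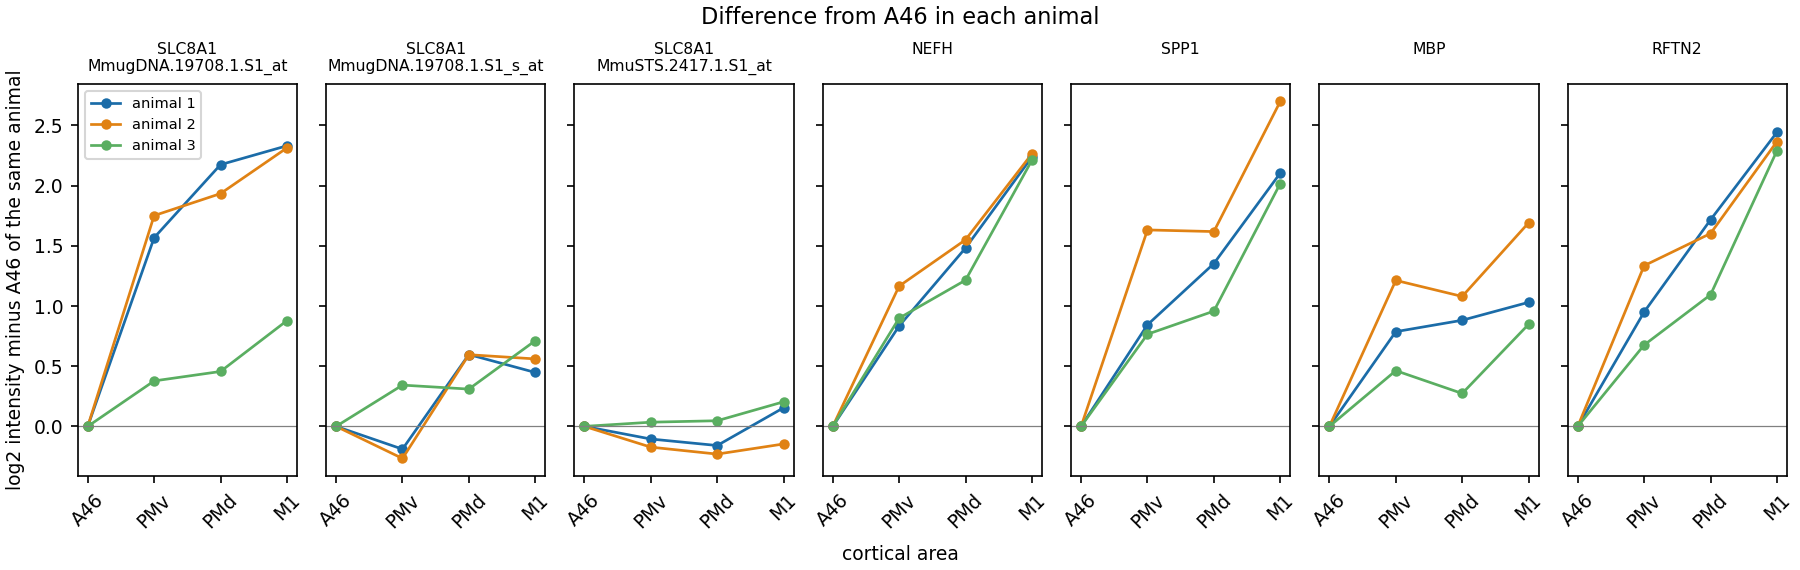
Log2 intensity minus A46 of the same animal (hemispheres averaged) in PMv, PMd and M1 for the 3 SLC8A1 probe sets and for NEFH, SPP1, MBP and RFTN2. Each line is 1 animal. In the first panel animal 3 reaches 0.88 in M1 where animals 1 and 2 reach 2.33 and 2.31, and in the NEFH panel the 3 animals reach 2.24, 2.26 and 2.21.

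To place this spread, the value of animal 3 less the mean of animals 1 and 2 was computed for M1 minus A46 in each of 10043 genes, each represented by its brightest probe set. It was -1.44 for SLC8A1 by its _at probe set, the lowest of the 10043 genes. Set among the same genes, the _s_at probe set, at 0.21, would stand at place 8925 from the lowest and STS, at 0.20, at place 8854. SLC8A1 was chosen on these intensities for its difference between areas. Animal 3 was set against the others because it stood apart in this same gene, and no such gap was ranked for animal 1 or 2. The place of SLC8A1, in this and the other areas, is therefore a description and not a test. The median gene had -0.0016, and the 1st and 99th percentiles were -0.49 and 0.48. SLC8A1 was also the lowest gene for PMd minus A46, at -1.60, and for PMv minus A46, at -1.28. The value for M1 was -1.44 in the left and -1.45 in the right hemisphere, and -1.19 without the right A46 array of animal 2.

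The comparison genes NEFH, RFTN2, SPP1 and MBP, with large differences between M1 and A46, had smaller gaps than SLC8A1. NEFH, the heavy neurofilament subunit of large projection neurons, had a gap of -0.04, with M1 minus A46 at 2.24, 2.26 and 2.21 in animals 1, 2 and 3. RFTN2, a raftlin family member, had -0.11, with 2.44, 2.37 and 2.29. SPP1, the secreted phosphoprotein osteopontin, had -0.38, and MBP, a structural protein of myelin, had -0.51. These 2 genes stood low too, at places 231 and 82 of 10043 from the lowest, and MBP lay below the 1st percentile of -0.49. Below -1 were 5 genes, of which SLC8A1 and COX15, an enzyme of heme A synthesis for cytochrome oxidase, were the lowest. The others were CARNS1, a carnosine synthase, FIG4, a phosphoinositide phosphatase, and UGT8, a galactosyltransferase of myelin lipids, at -1.08, -1.04 and -1.03. UGT8 also had a large M1 minus A46 difference, at 2.10, 3.12 and 1.57 in animals 1, 2 and 3. Above 1 were 2 genes. CARNS1, FIG4 and UGT8 are named because they fall below -1, a choice made after their values were seen.

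**Figure D3:**
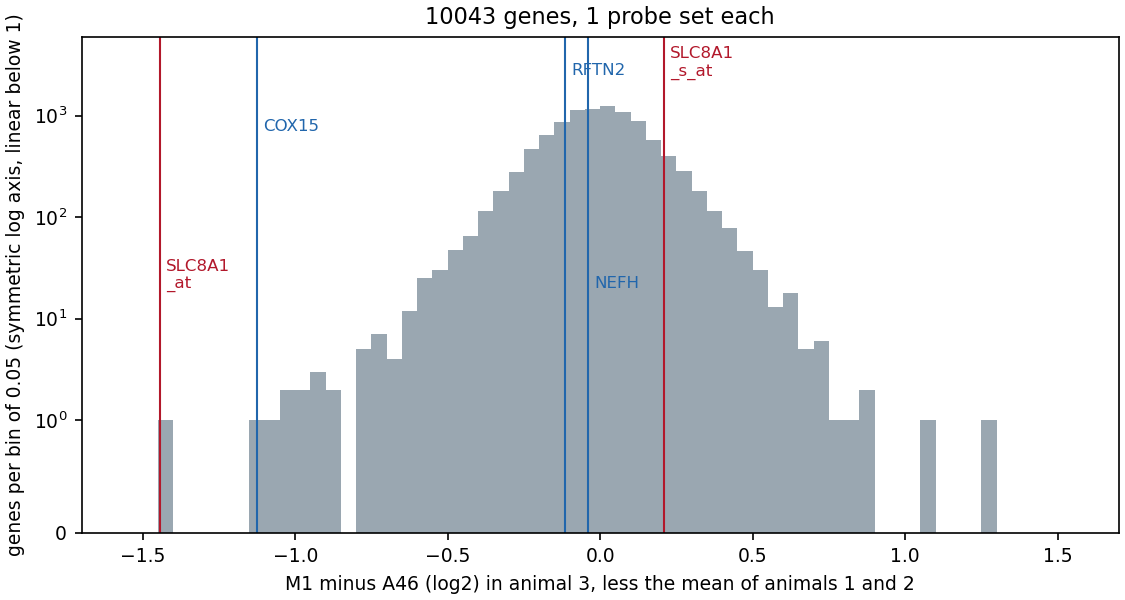
Histogram of M1 minus A46 (log2) in animal 3 less the mean of animals 1 and 2, over 10043 genes in bins of 0.05, on a symmetric log axis of gene counts. Vertical lines mark SLC8A1 _at at -1.44, COX15 at -1.13, RFTN2 at -0.11, NEFH at -0.04 and SLC8A1 _s_at at 0.21. MBP at -0.51 and SPP1 at -0.38 are not marked.

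The other SLC8A1 probe sets were dimmer and followed other patterns. Their geometric mean intensity over the 24 arrays was 60.0 for _s_at and 47.9 for STS, against 334.6 for _at, and brightness cannot be compared between probe sets as abundance. Over the 24 arrays the intensity of _at spanned 9.95-fold, that of _s_at 3.61-fold and that of STS 1.69-fold. The filter kept probe sets with a mean log2 intensity of at least 5.62, and 2 of the 3 members passed it. The STS probe set, at 5.58, lay 0.04 below it.

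The _s_at probe set was higher in M1 and PMd than in A46 and PMv. Its 6 A46 arrays ran from 40.44 to 57.89 with a median of 52.8, and its PMv arrays from 25.69 to 76.26 with a median of 48.5. Its PMd arrays ran from 60.8 to 92.62 with a median of 70.3, and its M1 arrays from 62.42 to 90.29 with a median of 74.2. All PMd and M1 arrays lay above all A46 arrays, while the PMv arrays overlapped those of every other area. Among the 26383 probe sets above the filter, 4.78% had all M1 arrays and 1.48% all PMd arrays above all A46 arrays. The share with both was not computed. The gene was chosen for its difference between areas, so these shares are background only. M1 exceeded A46 by 0.57 ± 0.13 (log2, SD, n = 3) and PMd exceeded it by 0.50 ± 0.17, in 6 of 6 hemispheres each. PMv minus A46 was -0.04 ± 0.33 and positive in 3 of 6 hemispheres, and M1 minus PMd was 0.07 ± 0.29. The place of PMv therefore differed between these probe sets. It lay above A46 in every hemisphere for _at and in 3 of 6 for _s_at.

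The animals also ranked differently in this probe set. M1 minus A46 of _s_at was 0.45, 0.56 and 0.71 in animals 1, 2 and 3, so animal 3 had the highest value where it had the lowest for _at. In M1 the arrays of animal 3 were the brightest for _s_at, at 90.29 and 88.79. For PMv minus A46 animal 3 had 0.34, against -0.19 and -0.27 in animals 1 and 2. The gap of animal 3 in _s_at was 0.21 for M1, -0.29 for PMd and 0.57 for PMv.

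The STS probe set showed little difference between areas. Its median intensity was 49.8 in M1, 43.3 in PMd, 47.2 in PMv and 48.7 in A46, and its whole range was 35.97 to 60.92, overlapping in every pair of areas. M1 minus A46 was 0.07 ± 0.19 (log2, SD, n = 3) and PMd minus A46 was -0.11 ± 0.14. The one step with the same sign in 6 of 6 hemispheres was M1 minus PMd, at 0.19 ± 0.12.

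Across the 24 arrays, with each animal's mean subtracted, the log2 values of _at and _s_at correlated at r = 0.55. Within animals 1, 2 and 3, over 8 arrays each, r was 0.63, 0.46 and 0.88. Those of _at and STS correlated at -0.12, with -0.04, -0.62 and 0.85 within the animals. These arrays share animals and a common normalisation, so the correlations are descriptions. Ranked by likeness to _at, the _s_at probe set stood at place 2733 of 26383, behind many probe sets of other genes. In animal 3 all 3 pairs of probe sets correlated positively over its 8 arrays, with _s_at and STS at 0.65.

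The share of variance over the 12 animal-by-area means set STS apart, while _at and _s_at were close to each other. For _at, 61.6% lay between areas, 26.6% between animals and 11.8% in the remainder. For _s_at these shares were 55.1%, 29.1% and 15.8%, and for STS they were 19.8%, 64.7% and 15.4%. NEFH had 94.8% between areas and 4.36% between animals.

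PMv and PMd were placed on the step from A46 to M1 by taking each animal's difference from A46 as a percent of its M1 difference. For SLC8A1 _at, PMv reached 62.0% ± 17.0 (SD, n = 3) and PMd 76.3% ± 21.6. In animals 1, 2 and 3 PMd reached 93.3%, 83.6% and 51.9%. NEFH had 43.1% ± 7.41 in PMv and 63.2% ± 7.25 in PMd. SPP1 had 46.2% ± 12.4 and 57.2% ± 8.74, and MBP had 67.6% ± 11.5 and 60.5% ± 26.8. The intervals of mean ± SD of SLC8A1 overlapped those of these 3 genes in both premotor areas, but they ignore the pairing by animal. In each animal SLC8A1 had a higher share than NEFH and SPP1 in PMv, and than SPP1 and MBP in PMd. MBP was above it in PMv in animals 1 and 3, and NEFH in PMd in animal 3. The differences were not tested.

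Left and right hemispheres were compared with 1 left minus right difference per animal, a comparison the choice of the gene did not use. SLC8A1 _at was higher on the left by 0.09 on the log2 scale (SE 0.05, n = 3 animals), with 95% limits of -0.01 and 0.19 and 0.04, 0.20 and 0.03 in animals 1, 2 and 3. The difference did not pass the test (limma, adjusted p = 0.728). In the same test 0.144% of 26383 probe sets were called. For _s_at the difference was -0.02 (SE 0.06, limits -0.15 and 0.12, limma adjusted p = 0.997). For STS, tested without the intensity filter, it was 0.06 (SE 0.06, limma adjusted p = 0.959). These limits span zero and leave room for differences up to their bounds.

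By area, left minus right of _at was 0.04 ± 0.20 in M1, 0.20 ± 0.22 in PMd, -0.24 ± 0.24 in PMv and 0.37 ± 0.57 in A46 (SD, n = 3). The A46 value rests on animal 2, at 1.01. An F test for a left and right difference that varied between areas gave limma adjusted p = 0.999 for both _at and _s_at. That test called 0 of 26383 probe sets (0%) with limma, and 1228 had an unadjusted p under 0.05.

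The genes whose pattern was most like that of SLC8A1 _at were ranked by Pearson's r over the 24 arrays after each animal's mean was subtracted, each of 10042 genes by its brightest probe set. The first 6 were COX15 (r = 0.97), LOC696638 (0.95), GNG5, a G protein gamma subunit (0.95), EGLN1, a prolyl hydroxylase that senses oxygen (0.93), HIBADH, an enzyme of valine breakdown (0.93), and SAP18, a Sin3-associated protein (0.92). The lowest were TIMP2, an inhibitor of metalloproteinases, at -0.91, and OVOL2, a zinc finger factor, and TMEM108, a transmembrane protein, both at -0.90. The median over all genes was 0.02, the 5th and 95th percentiles were -0.65 and 0.74, and 37 genes lay above 0.9. NEFH stood at place 118 with 0.86, SPP1 at 80 with 0.87 and MBP at 52 with 0.89. Some probe sets that were not the brightest of their gene, and so were not ranked, lay above that of EGLN1. They were those of CDC42BPA (r = 0.96), SF3B5 (0.94) and ATP6V0E1 (0.93).

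All 6 leading genes had their lowest M1 minus A46 difference in animal 3, which largely follows from choosing them for their likeness over the same arrays. In animals 1, 2 and 3 it was 1.44, 1.58 and 0.38 for COX15, and 0.69, 0.79 and 0.11 for GNG5. For LOC696638 it was 0.99, 1.01 and 0.33. HIBADH was less uneven, at 0.96, 1.07 and 0.59. Other probe sets of the same genes ranged widely in r. A second SAP18 probe set had 0.90, with 0.34, 0.38 and 0.12 in the 3 animals, and the other SAP18 probe sets had 0.49 and 0.21. The other HIBADH probe sets had 0.48 and 0.22. Of EGLN1, 3 other probe sets above the filter had r between -0.39 and -0.14, and the second COX15 probe set, below the filter, had -0.02. The choice of arrays also mattered. Within the first 6 places, 3, 2 and 4 of these genes were found without animals 1, 2 and 3, and 4 without subtracting animal means. With the 12 animal-by-area means 0 of the 6 were among the first 6, although all 6 were among the first 100. For _s_at the first genes were PARVA, an actin-binding parvin, and LYL1, a helix-loop-helix factor, both at 0.87, YARS1, a tyrosyl-tRNA synthetase (0.86), and SLC25A5, an ADP/ATP carrier (0.86). MRPL19, a mitochondrial ribosomal protein, and RASA1, a Ras GTPase-activating protein, followed, both at 0.85. None of the first 6 genes was common to the _at and _s_at rankings.

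Several marker lists moved with SLC8A1 _at. For each list the mean log2 intensity of its tested markers was correlated with _at over the 24 arrays, with animal means subtracted. The r was 0.87 for large projection neurons, 0.86 for oligodendrocytes, 0.85 for oligodendrocyte precursors and -0.78 for pyramidal neurons. For interneurons r was 0.60, for microglia 0.52, for endothelial cells 0.52 and for astrocytes 0.38, and for muscle and for meninges and choroid plexus it was -0.67 and -0.39. These arrays share animals and a normalisation, so the values are descriptions. Among oligodendrocyte and myelin markers, 6 of 7 tested were higher in M1 than in A46 and 0 were lower, where limma called 8.77% of genes higher and 5.89% lower. Their summed intensity ran from 9667 to 13210 over the A46 arrays and from 18520 to 25430 over the M1 arrays. In animals 1, 2 and 3 their mean log2 intensity was higher in M1 than in A46 by 1.05, 1.71 and 0.90, against 2.33, 2.31 and 0.88 for SLC8A1 _at. Among large projection neuron markers 4 of 5 were higher and 1 was lower, and their summed intensity ran from 2351 to 2618 over the A46 arrays and from 4624 to 5951 over the M1 arrays. The M1 minus A46 differences of their mean log2 intensity were 1.03, 1.11 and 0.95 in the 3 animals. The part of any marker list in the SLC8A1 difference was not tested.

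Oligodendrocyte precursor markers were higher in 3 of 5, and pyramidal neuron markers were higher in 1 and lower in 4 of 6. For interneurons 2 of 5 were higher and 1 was lower, for astrocytes 2 of 7 were higher, for microglia 2 of 10 were higher and 1 was lower, and for endothelial cells 1 of 5 was higher. Of 5 markers of meninges and choroid plexus 0 passed the test in either direction. SLC8A1 is also the exchanger of heart and smooth muscle. Of 3 muscle markers tested 0 were higher and 1 was lower in M1, and their summed intensity was 408.9 to 635.3 in A46 and 320.8 to 425.1 in M1. No tested marker of any list was at 0. RNA quality was read from the signal at the 3' end over that at the 5' end of control transcripts, in log2. For actin it was 1.08 ± 0.11 in A46 and 0.94 ± 0.05 in M1 (SD, n = 3), and for GAPDH it was 0.84 ± 0.05 and 0.96 ± 0.04. Its part in the SLC8A1 difference was not tested.

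Genes that handle calcium beside SLC8A1 were tested between areas with limma, from 7 lists of 88 genes in all. Of these, 60 were named on the array and 51 passed the filter. M1 exceeded A46 in 8 of the 51, where 8.77% of all genes did, and was lower in 7, where 5.89% did. The median M1 minus A46 difference was -0.04 over the 51 and -0.0012 over all 10043 genes. The counts rest on the animals: 9, 6 and 20 of the 51 were called without animals 1, 2 and 3, and 9 were called without the animal as a replicate block, where the calls of SLC24A3, FXYD1, CACNB2, MICU2, SMDT1 and SRI were lost. SLC8A1 is not counted in these lists.

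Among the other exporters of calcium, no SLC8A2 probe set is named in the annotation used here. SLC8A3, the nearest measured relative, ran the other way without passing the test. Its 6 A46 arrays ran from 165.6 to 188 with a median of 171.6, and its M1 arrays from 139.9 to 161.1 with a median of 148.2. M1 minus A46 was -0.22 (SE 0.07, n = 3, limma adjusted p = 0.0622), with -0.34, -0.23 and -0.10 in animals 1, 2 and 3. It passed in fits that added quantile normalisation (limma adjusted p = 0.0278), took a filter at the 70th percentile (0.0454), left out animal 3 (0.0277) or used animal-by-area as a random block (0.0102).

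ATP2B3, a calcium pump of the plasma membrane found mainly in neurons, was higher in M1. Its arrays ran from 226.2 to 265.5 in A46 and from 296.5 to 412 in M1, with medians of 240 and 327.5. The difference was 0.52 (SE 0.07, limma adjusted p = 0.00032), with 0.69, 0.50 and 0.37 in the 3 animals. SLC24A4, a sodium-calcium exchanger that also carries potassium, was lower in M1, at 44.95 to 56.71 against 59.09 to 76.64 in A46. Its difference was -0.48 (SE 0.09, limma adjusted p = 0.00417). SLC24A3, of the same family, was at -0.23 (limma adjusted p = 0.041). Its call was lost without animal 1 (0.195) or 2 (0.465), without the filter (0.0627) and without the variance trend (0.0544). Of the 6 exporters tested 1 was therefore higher and 2 were lower in M1.

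**Figure D4:**
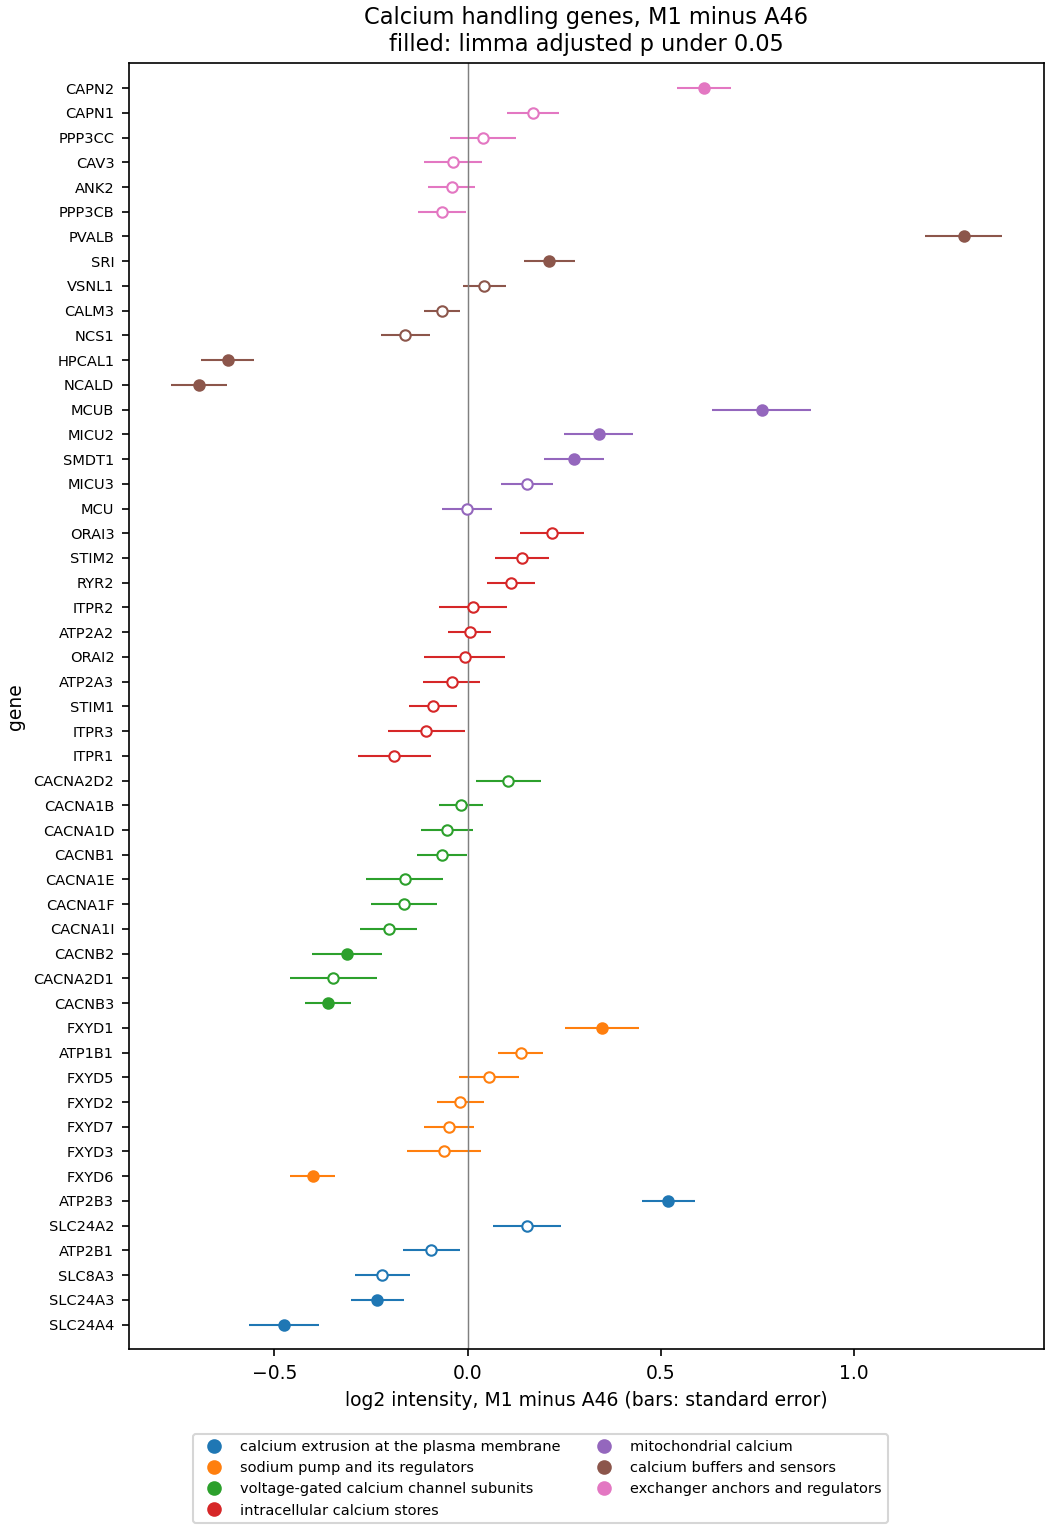
M1 minus A46 difference in log2 intensity for the 51 tested calcium handling genes, with standard errors, coloured by list. Filled points passed limma at an adjusted p under 0.05, which were 8 higher and 7 lower, with PVALB at 1.28 on the right and NCALD at -0.70 on the left.

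Mitochondrial calcium genes gave 3 higher and 0 lower of 5 tested, with a median of 0.28. MCUB, a pore subunit related to MCU, rose by 0.76 (SE 0.13, limma adjusted p = 0.00178), from a median intensity of 90.5 in A46 to 159 in M1. The regulators MICU2 and SMDT1 were higher by 0.34 and 0.28. Without animal 2 the calls of MCUB (limma adjusted p = 0.0929), MICU2 (0.275) and SMDT1 (0.532) were lost, and those of MICU2 (0.116) and SMDT1 (0.236) were lost without animal 1. That of MICU2 was also lost with the mean of its probe sets (0.109). MICU3 had 0.15 and did not pass.

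Calcium buffers and sensors were split, with 2 higher and 2 lower of 7 tested. PVALB, the parvalbumin of fast-firing interneurons, rose by 1.28 (SE 0.10, limma adjusted p = 1.03e-05), and SRI, the sorcin that binds calcium release channels, by 0.21 (0.0496). The SRI call was lost without animal 1 (limma adjusted p = 0.191) or 2 (0.61), without the filter (0.0795), without the variance trend (0.0677) and with the mean of its probe sets (0.105). The neuronal calcium sensors HPCAL1 and NCALD were lower, at -0.62 (SE 0.07, limma adjusted p = 0.000101) and -0.70 (SE 0.07, 6.97e-05). NCALD arrays ran from 2250 to 2789 in A46 and from 1363 to 1883 in M1.

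The sodium pump list, whose products set the gradient that drives SLC8A1, gave 1 higher and 1 lower of 7. FXYD1 (phospholemman), a regulator of the pump and of the exchanger, was higher by 0.35 (SE 0.10, limma adjusted p = 0.0306), in 2 of 3 animals, and its call was lost without animal 1 (0.234) or 2 (0.558) and with quantile normalisation (0.059). FXYD6, another regulator, was at -0.40 (SE 0.06, 0.000685), and its call was lost without animal 2 (0.0961). The pump subunit ATP1B1 had 0.14 (limma adjusted p = 0.157, passing with quantile normalisation at 0.0382), and FXYD3 had -0.06 (0.751).

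Of 10 voltage-gated calcium channel subunits 0 were higher and 2 were lower, with limma and an adjusted p under 0.05. CACNB3 was at -0.36 (limma adjusted p = 0.00149, lost without animal 2 at 0.116) and CACNB2 at -0.31 (0.0374, lost without animal 1 at 0.153 or 2 at 0.495). CACNA2D1 had -0.35 (limma adjusted p = 0.0612) and passed with quantile normalisation (0.0497), without animal 3 (0.00813) and with the random block (0.0158). CACNA1B had -0.02 (0.894). Of 10 genes of the intracellular stores 0 passed: the release channels ITPR1 and RYR2 had -0.19 and 0.11, the pump ATP2A2 had 0.01 and the entry channel ORAI3 had 0.22. ITPR1 passed without animal 3 (limma adjusted p = 0.0032). Among 6 genes that anchor or regulate the exchanger, the protease CAPN2 rose by 0.61 (SE 0.07, limma adjusted p = 0.000117). CAPN1 had 0.17 and passed with the random block (limma adjusted p = 0.0389), and the calcineurin subunits PPP3CB and PPP3CC had -0.07 and 0.04 and did not pass in the fits run.

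Fewer of these genes differed in the other comparisons. Between the mean of PMd and PMv and A46, 4 were higher, where limma called 2.28% of genes, and 3 were lower, where it called 1.51%. ATP2B3 was higher by 0.32, MCUB by 0.47, PVALB by 0.56 and CAPN2 by 0.35, and SLC24A4, HPCAL1 and NCALD were at -0.37, -0.34 and -0.50. SLC8A1 _at lay above A46 by 1.38 ± 0.83 in that comparison (SD, n = 3). Between M1 and the premotor mean 2 were higher (1.76% of genes) and 3 were lower (0.946%). PVALB was higher by 0.73 and CAPN2 by 0.26, and FXYD6, CACNB3 and HPCAL1 were at -0.22, -0.24 and -0.28. The calls of FXYD6 (limma adjusted p = 0.0716) and CAPN2 (0.0645) were lost without the filter, that of FXYD6 without the variance trend (0.0918), and those of CACNB3 (0.0545) and HPCAL1 (0.119) with the mean of their probe sets. SLC8A1 _at was higher by 0.46 there. An F test called 9 of the 51 for any difference between areas, where it called 7.88% of genes. Without the animal as a replicate block limma called 0 in both of these comparisons, where 11 and 6 of the 51 had an unadjusted p under 0.05. Without animals 1 and 2 in turn, 2 and 0 were called for the premotor mean against A46, and 1 and 1 for M1 against the premotor mean.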

How the data were processed

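The titles of the 24 arrays gave the area, the side and the animal. The authors deposited array intensities on a linear scale, summarised with RMA per the submitters' processing notes; for the RMA version, and for which arrays were normalised jointly, the sources used here give no statement. RMA gives arrays that are normalised together a common distribution of probe values, so among them a shift of all transcripts together in 1 area cannot be seen. The deposited values were not fully alike in distribution. Adding quantile normalisation moved the probe sets called for the premotor mean minus A46 from 884 to 1769. The deposited intensities were converted to log2 (floor of 1, which 0 values reached). Coordinates are left out because no build is named in the files.

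Of 52865 probe sets 99 controls were removed, and 26383 with a mean log2 intensity at or above the median, 5.62 (intensity 49.3), were tested. Gene symbols came from GEO's platform annotation: 24956 probe sets have 1 symbol, 361 several and 27449 none, and 24616 matched a current gene entry. A gene was represented by its brightest kept probe set, giving 10043 genes.

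The animal was the replicate. Hemispheres were averaged, giving 12 means, and limma 3.58.1 (R 4.3.3) was fitted with area and animal as terms (lmFit, eBayes with an intensity trend, 6 residual and 6.98 prior degrees of freedom), two-sided, with Benjamini-Hochberg adjusted p-values under 0.05 over all kept probe sets called. The animal number pairs the samples because each animal gave all 4 areas: with area means subtracted, 18 pairs of means from the same animal correlated at 0.207 to 0.85 (median 0.606). Left minus right was fitted on 1 difference per animal, and its variation by area on 12 differences. Tested on simulated data, the fits recovered 100% of 200 changed probe sets among 26383, with 15 false calls for M1 minus A46 and 9 for left minus right. The simulated noise was drawn independently for each array with the spread of hemisphere-averaged means, so after averaging it was smaller than in the data. The simulation therefore checks that the fits run as intended and does not give their power in these data.

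The members, gene lists and marker lists were chosen with earlier results of these data known. Genes were named as the 6 most and 3 least like SLC8A1, up to 4 of each calcium list with the smallest p of the F test, SLC8A2 and SLC8A3, and NEFH, SPP1 and MBP for comparison; RFTN2 was added after its values were seen. Alternatives were another normalisation, floor, filter, variance trend, block and probe set rule, and leaving out each animal. Single hemispheres, leaving out 1 A46 array and leaving out A46 from left minus right were added after the data were seen.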

Additional observations from a re-analysis of the deposited data

Results flagged for a closer look

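The right A46 array of animal 2 had an intensity of 89.92 for SLC8A1 _at, far below the other 5 A46 arrays, which ran from 155.7 to 181.4. Its gap to the nearest array was a share of 0.782 of the range of the 6 arrays, above the critical value of Dixon's test for that number. Among 12 groups of 6 arrays examined (3 probe sets in 4 areas) it was the 1 sample that stood apart, and chance marks about 1 in 20 groups. On the same array the _s_at probe set read 40.44, the lowest of its A46 arrays, and the STS probe set read 48.3.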

How the results depend on the processing

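M1 minus A46 of SLC8A1 _at kept its direction under all alternatives run. It was 1.60 to 2.32 when an animal was left out, 1.68 in left and 2.01 in right hemispheres, 1.82 with quantile normalisation and 1.84 without the replicate block (SD 0.79). M1 minus the premotor mean of _at, 0.46, moved to 0.42 with quantile normalisation, and to 0.49 in left and 0.44 in right hemispheres. For _s_at the premotor mean minus A46, 0.23, was 0.13 on the left and 0.34 on the right, and M1 minus the premotor mean, 0.34, was 0.43 and 0.25. Left minus right, which passed in no fit run, changed sign for _s_at with a floor of 32 (0.011) and when an animal was left out (-0.094 to 0.095), and for _at without area A46 (-0.0014). M1 minus A46 changed sign for ATP2A2 with quantile normalisation (-0.021) and when an animal was left out (-0.041 to 0.043, negative without animal 3), for CACNA1B likewise (-0.092 to 0.046, positive without animal 3), and for PPP3CB with the mean of its probe sets (0.085); none of these passed. Of the calcium genes, 15 were called for M1 minus A46, 6 to 20 when an animal was left out, 9 without the replicate block (4 higher, 5 lower) and 19 with quantile normalisation (8 higher, 11 lower, against 8 and 7). For the premotor mean minus A46, 7 became 0 to 16 when an animal was left out (limma, with 7 at an unadjusted p under 0.05 for the 0), 0 without the replicate block (11 unadjusted) and 11 with animal-by-area as a random block. For M1 minus the premotor mean, 5 became 1 to 7 when an animal was left out, 0 without the replicate block (6 unadjusted), 8 with quantile normalisation (2 higher, 6 lower, against 2 and 3), 3 without the filter and 3 with the mean of a gene's probe sets. For any area difference, 9 became 2 to 22 when an animal was left out, 2 without the replicate block and 15 with the random block. Fits without an animal hold fewer samples; for the other changes the cause was not tested. The STS probe set has a mean log2 intensity of 5.58, 0.04 below the filter.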
